A study of Rattus norvegicus with 6 samples.

Results

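Levels of interferon-stimulated genes were examined in rat brain tissue after intracerebral hemorrhage (ICH), in which blood leaks into brain tissue. The group holds 34 genes known as classical interferon targets, and its members were found by matching each array probe to a rat gene through its RefSeq transcript. Of the 34 genes, 31 had a probe among the 15443 named genes on the array, and 30 were bright enough to test among 12963 named genes and 22179 tested rows in all, where a row is a gene or a probe without a gene name. No probe was matched to Ddx58, Ifi44l or Herc6, and Ifit1 had a probe that failed the brightness filter.

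Interferons are secreted proteins, and cells release those of type I on sensing viral or misplaced nucleic acid. Type I interferons act through the receptor subunits Ifnar1 and Ifnar2 and the kinases Jak1 and Tyk2, and the resulting complex, which holds Stat2 and Irf9, binds a DNA element called ISRE. Type II interferon, encoded by Ifng, acts through Ifngr1 and Ifngr2 and leads to the binding of an element called GAS. The induced genes encode sensors, antiviral enzymes, membrane proteins and chemokines, and in brain they are known to be induced in microglia, infiltrating myeloid cells, astrocytes and endothelium.

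The study compared 3 samples from rats with a sham operation and 3 from rats with ICH, 1 single-colour array each. The sample titles do not say whether each came from 1 rat. The sham samples are called brain tissue and the ICH samples peripheral brain tissue, which the title of the study places near the hematoma. All 6 carry the label day 1, with no starting point for the count. Strain, sex, the way the hemorrhage was made and the way the tissue was cut are not given in the sources used here. By its design text the study used biological replicates, and the values gave no sign that the replicate numbers pair the arrays. That text calls the ICH arrays transfected, a word that appears on no sample.

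The tissue carried the markers of brain. Of the listed markers, 10 of 11 for neurons, 11 of 12 for astrocytes and 12 of 12 for oligodendrocytes had a probe that passed the brightness filter, among them Gap43 and Eno2 of neurons, Aldoc and Aqp4 of astrocytes, and Mbp of oligodendrocytes. Of 12 listed markers of striatal projection neurons, 8 were lower in ICH at an unadjusted p under 0.05 in limma, beside 8.56% of all rows. At an adjusted p under 0.05 there were 0, and the median difference of the 12 markers was −0.93 on the log2 scale. Their median by array was 0.29, 0.32 and −0.57 in sham and −0.78, −1.34 and −0.83 in ICH, relative to the sham mean. Beside 45.9% of all rows, 7 of 9 markers of cortical projection neurons had higher means in ICH. Of these 4 passed an unadjusted p under 0.05, beside 6.16% of all rows, as did 1 marker with a lower mean, and 0 passed after adjustment. Their median by array was 0.33, −0.32 and 0.12 in sham and 0.21, 0.77 and 0.28 in ICH, so the groups overlapped. Most means of the striatal and the cortical markers thus lay in opposite directions, and the part of these neurons in the interferon-stimulated genes was not tested. Between 81.8% and 85.4% of spots were well above background on each array, and 0 were saturated. In whole tissue, fewer cells of a type and less RNA per cell cannot be told apart.

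Levels below are log2 signals relative to the 75th percentile of their array, so that 0 is that percentile and a step of 1 is a doubling. Differences are ICH minus sham on the same log2 scale, with the standard error (SE) from limma and n = 3 arrays in each group. Adjusted p-values are from limma with Benjamini-Hochberg adjustment over all 22179 rows.

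The interferon-stimulated genes were high on ICH 1 and ICH 2 and low on ICH 3. Relative to the sham mean, the median of the 30 members stood at 0.59 on ICH 1 and 0.80 on ICH 2, and at −0.70 on ICH 3. ICH 3 carries the same label as the other ICH arrays. Some genes were above all sham arrays on all 3 ICH arrays, as were 11.0% of all rows. Examples chosen after their values were seen are Mmp9, a matrix protease, Spp1 and Arg1. Picked in this way, they are no test of the state of ICH 3. On ICH 3 Spp1 and Arg1 stood at 1.25 and 1.1 relative to the sham mean. Mmp9 stood at 4.23, 4.75 and 2.62 on ICH 1 to 3. On sham 1 and sham 2 its level was −8.57 and −8.93, below the lowest level well above background there (−8.53 and −8.74). Its probe thus needed ICH arrays, where it was high, to pass the brightness filter, and the sizes for Mmp9 are uncertain. Chosen in the same way, the chemokine Ccl2 and the macrophage marker Msr1 were high on ICH 1 and ICH 2 and at −1.34 and −0.54 on ICH 3. No label says whether the tissue of ICH 3 lay as close to the hematoma, or whether its hemorrhage was as large. On the sham arrays the members' median was −0.16, 0.25 and 0.02. Over all tested rows the array medians stayed between −0.08 and 0.03. On 20 of the 30 members ICH 1 and ICH 2 both lay above every sham array while ICH 3 lay below every sham array, an order held by 3.84% of all rows. ICH 3 was the lowest of the 6 arrays for 25 members, against 12.1% of all rows. Both of these counts describe an order that was chosen after the values were seen, and the members share the same 6 samples.

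**Figure D1:**
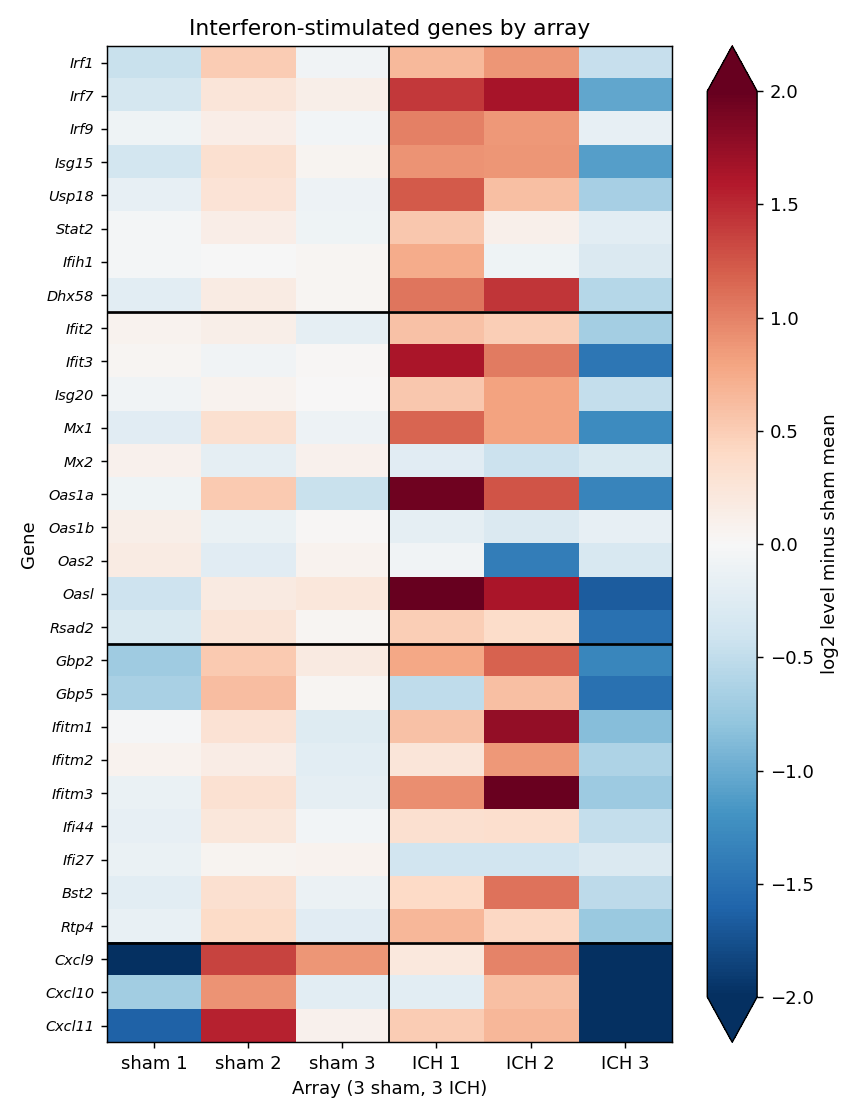
Log2 level of each of the 30 tested interferon-stimulated genes (rows, grouped by role from sensors and transcription factors at the top, through antiviral effectors and membrane proteins, to chemokines) on each array (columns), minus the mean of the 3 sham arrays. Red is above and blue below the sham mean, with the colour scale ending at 2 in either direction; most rows are red on ICH 1 and ICH 2 and blue on ICH 3, while Mx2, Oas1b and Ifi27 are pale blue on all 3 ICH arrays.

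No member passed the test. Limma called 0 of the 30 members and 0 of all rows (0%) at an adjusted p under 0.05, and the members' adjusted p-values ran from 0.315 to 0.917. At an unadjusted p under 0.05, 0 members were higher in ICH, beside 6.16% of all rows, and 1 member was lower, beside 8.56% of all rows. The means of 21 members were higher in ICH, which is 70% of the members beside 45.9% of all rows, and the members' median difference was 0.19 against −0.04 over all rows. No member had all ICH arrays above all sham arrays, beside 11.0% of all rows. Mx2, Oas1b and Ifi27 had all ICH arrays below all sham arrays, which is 10% of the members beside 16.5% of all rows.

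The spread among ICH arrays was wide for these genes. The median standard deviation (SD) of a member was 0.26 over the sham arrays and 1.00 over the ICH arrays, and 26 of 30 members (86.7%) varied more in ICH. Over all rows the medians were 0.14 and 0.31, and 79.7% of rows varied more in ICH. Ifit3 showed the contrast clearly, with an SD of 0.06 in sham and 1.64 in ICH.

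The promoters of these genes were searched for the cores of both interferon elements. RefSeq promoter windows of the assembly GRCr8 run from 250 bases before to 50 after a gene's start, and 24 of the 34 members had one. The ISRE core GAAANNGAA, read on either strand (its reverse is TTCNNTTTC), was found in 16 of 24 windows (66.7%), against 9.71% of all 33469 windows, and 8 members held 2 matches. The GAS core TTCNNNGAA, which is the same on both strands, was found in 9 of 24 (37.5%) against 8.87% of all windows. The cores can overlap each other and themselves. 5 members held both and 4 held neither, which says only that these letters are not in the window. Of the tested members with an ISRE match, the means of 10 were higher and 5 lower in ICH, and of those with a window and no match 5 were higher and 2 lower.

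The windows of the 4 members with an ISRE match and the largest differences in either direction are shown, because they place a chemokine, a membrane protein, a transcription factor and an antiviral enzyme side by side. Capitals mark the matches, and each window reads 5′ to 3′ along the gene's own strand, in GRCr8.
Cxcl10, chr14:15988816-15989115, plus strand: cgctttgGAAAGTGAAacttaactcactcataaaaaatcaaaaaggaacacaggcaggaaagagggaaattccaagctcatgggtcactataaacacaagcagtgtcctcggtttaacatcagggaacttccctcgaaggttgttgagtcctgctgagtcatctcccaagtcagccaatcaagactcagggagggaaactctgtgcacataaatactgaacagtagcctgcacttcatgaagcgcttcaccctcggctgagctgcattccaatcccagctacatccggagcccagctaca
Ifitm3, chr1:205541709-205542008, minus strand: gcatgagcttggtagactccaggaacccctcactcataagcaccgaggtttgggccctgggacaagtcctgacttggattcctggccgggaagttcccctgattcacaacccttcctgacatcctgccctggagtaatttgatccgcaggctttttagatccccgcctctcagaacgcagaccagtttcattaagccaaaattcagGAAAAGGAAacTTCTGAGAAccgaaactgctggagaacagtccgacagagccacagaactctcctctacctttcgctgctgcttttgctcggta
Irf7, chr1:205799974-205800273, minus strand: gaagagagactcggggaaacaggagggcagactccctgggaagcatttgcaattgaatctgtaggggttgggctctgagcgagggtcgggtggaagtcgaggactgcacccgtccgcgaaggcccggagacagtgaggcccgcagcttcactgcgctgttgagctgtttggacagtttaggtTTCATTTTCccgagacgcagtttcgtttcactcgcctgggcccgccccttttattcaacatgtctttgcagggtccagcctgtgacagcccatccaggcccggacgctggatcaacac
Oas1a, chr12:41330216-41330515, plus strand: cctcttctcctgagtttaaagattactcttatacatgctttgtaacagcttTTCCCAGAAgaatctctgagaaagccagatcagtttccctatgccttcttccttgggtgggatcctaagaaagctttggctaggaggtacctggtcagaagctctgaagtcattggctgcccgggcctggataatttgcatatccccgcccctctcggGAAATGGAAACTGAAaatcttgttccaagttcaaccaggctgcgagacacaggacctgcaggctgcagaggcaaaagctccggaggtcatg
In Cxcl10 the ISRE core began 243 bases before the start. In Ifitm3 an ISRE core began 44 bases and a GAS core 33 bases before the start. In Irf7 the core lay on the opposite strand and began 68 bases before the start. In Oas1a a pair of overlapping ISRE cores began 41 and 35 bases before the start, with a GAS core at 199 bases. Its relative Oas1b held the same 3 cores, at 59, 53 and 213 bases. A match of letters is not a measured binding site.

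Among the transcription factors, sensors and feedback regulators, the means of 8 of 8 tested members were higher in ICH. Their median relative to the sham mean was 0.96 on ICH 1, 0.88 on ICH 2 and −0.52 on ICH 3, and ICH 3 was the lowest array for all 8. Irf7, the transcription factor that amplifies type I interferon production, stood at −1.27, −0.67 and −0.79 in sham 1 to 3 and at 0.51, 0.74 and −1.95 in ICH 1 to 3, an order of arrays kept throughout. ICH 1 and ICH 2 were above and ICH 3 below the sham range, so the groups overlapped. The difference of Irf7 was 0.68 ± 0.72 (SE, adjusted p = 0.647), a 1.60-fold higher mean.

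Irf9, the DNA-binding part of the complex with Stat2, stood at −1.77, −1.56 and −1.75 in sham and at −0.69, −0.82 and −1.85 in ICH. Here ICH 3 lay just under the lowest sham array, and the difference of 0.57 ± 0.32 had the smallest adjusted p among members with a higher mean (0.426, limma). Stat2, its partner, stood at 0.03, 0.20 and −0.02 in sham and at 0.61, 0.17 and −0.14 in ICH, and only ICH 1 was above the sham range. Irf1, a transcription factor downstream of type II interferon, stood at −1.62, −0.67 and −1.24 in sham and at −0.52, −0.30 and −1.65 in ICH, with ICH 3 close to sham 1. Another probe of Irf1 gave the same difference of 0.36.

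Dhx58 encodes LGP2, a cytosolic RNA sensor related to the products of Ddx58 and Ifih1. It stood at −2.86, −2.49 and −2.61 in sham and at −1.58, −1.23 and −3.22 in ICH, a difference of 0.64 ± 0.52 (limma adjusted p = 0.549). Ifih1, which encodes the RNA sensor MDA5, stood within 0.1 of the same level on all sham arrays, at −4.09, −4.05 and −4.00. Its ICH values were −3.31, −4.14 and −4.34, so that ICH 2 did not share the high value of ICH 1.

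Isg15, a ubiquitin-like protein that is attached to other proteins, stood at 0.48, 1.16 and 0.89 in sham and at 1.75, 1.72 and −0.25 in ICH. Usp18, the protease that removes Isg15 and also restrains the type I receptor, stood at −2.54, −2.11 and −2.49 in sham and at −1.15, −1.78 and −3.04 in ICH. Both genes had ICH 1 and ICH 2 above the sham range and ICH 3 below it. Their differences were 0.23 ± 0.57 and 0.39 ± 0.47, and the other probe of Usp18 gave 0.36.

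**Figure D2:**
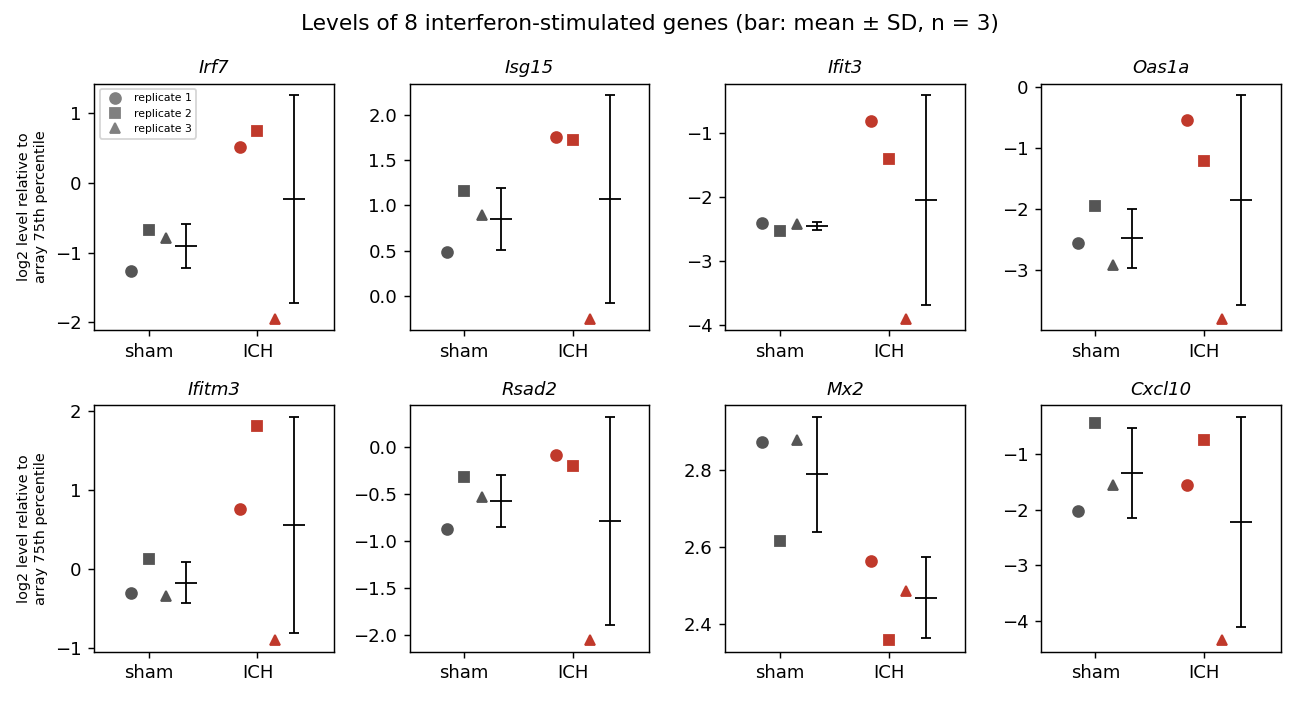
Log2 level relative to the array's 75th percentile for 8 interferon-stimulated genes, sham in grey and ICH in red, 1 point per array with the marker giving the replicate number, and a bar for the mean ± SD (n = 3). In Irf7, Isg15, Ifit3, Oas1a, Ifitm3 and Rsad2 the ICH points split to either side of the sham points, Mx2 is lower on every ICH array, and Cxcl10 has ICH 3 far below the other 5 arrays; each panel has its own vertical scale.

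The antiviral effectors divided into those that followed the split and those that did not. Of 10 tested members 7 had the order of ICH 1 and ICH 2 above sham and ICH 3 below it, and the means of 6 were higher in ICH. Their median relative to the sham mean was 0.57, 0.65 and −0.97 on ICH 1 to 3. Ifit3, an RNA-binding protein of the tetratricopeptide family, stood at −2.42, −2.53 and −2.43 in sham and at −0.82, −1.42 and −3.90 in ICH. Every ICH value lay outside the narrow sham range, on opposite sides of it, and the difference was 0.41 ± 0.77 (limma adjusted p = 0.800). Ifit2, of the same family, stood at −1.70, −1.66 and −1.95 in sham and at −1.18, −1.27 and −2.45 in ICH.

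Oas1a and Oasl belong to the oligoadenylate synthetase family, whose enzymes make the activator of RNase L, although Oasl proteins differ in activity between species. Oas1a stood at −2.56, −1.96 and −2.92 in sham and at −0.54, −1.22 and −3.80 in ICH, a difference of 0.63 ± 0.84 (limma adjusted p = 0.716). Oasl stood at −7.09, −6.49 and −6.44 in sham and at −4.52, −5.03 and −8.33 in ICH, where the spot on ICH 3 was not well above background. These were the widest splits among the tested effectors, with ICH 1 at 1.94 and 2.15 above the sham mean.

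Mx1, a dynamin-like GTPase that blocks viruses, stood at −0.44, 0.11 and −0.30 in sham and at 0.96, 0.59 and −1.47 in ICH. Isg20, an exonuclease, stood at −2.35, −2.21 and −2.27 in sham and at −1.74, −1.48 and −2.75 in ICH. Rsad2, which encodes viperin, stood at −0.87, −0.31 and −0.53 in sham and at −0.08, −0.20 and −2.06 in ICH. In all 3 genes the ICH arrays fell on opposite sides of the sham range, and the difference of Rsad2 was −0.21 ± 0.55 with all arrays and 0.43 without ICH 3.

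Mx2 and Oas1b, close relatives of Mx1 and Oas1a, had another pattern. Mx2 stood at 2.87, 2.62 and 2.88 in sham and at 2.56, 2.36 and 2.49 in ICH, a difference of −0.32 ± 0.14 (limma adjusted p = 0.357). Oas1b stood at 2.93, 2.68 and 2.85 in sham and at 2.64, 2.53 and 2.66 in ICH, a difference of −0.21 ± 0.13 (limma adjusted p = 0.459). In both genes all ICH arrays lay below all sham arrays and the ICH arrays varied no more than the sham arrays, with SDs of 0.10 and 0.07 against 0.15 and 0.13. With centring on spike-in probes in place of the 75th percentile both differences were positive, at 0.11 and 0.22, and with quantile normalization that of Oas1b was 0.01. Oas2 stood at −3.86, −4.24 and −3.96 in sham and at −4.09, −5.40 and −4.34 in ICH, with ICH 2 the lowest. Members of the Mx, Oas and Ifitm families have similar sequences, and hybridization of a transcript to a relative's probe was not tested.

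Ifit1 was dim. Its probe was well above background on sham 3 and ICH 2 alone, at −7.19 and −6.16, and no fold is given for it.

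Among guanylate-binding, membrane and other proteins, 7 of 9 tested members had the same split, and the means of 7 were higher in ICH. Their median relative to the sham mean was 0.40, 0.86 and −0.73 on ICH 1 to 3. Ifitm3, a membrane protein that blocks the entry of enveloped viruses, stood at −0.30, 0.13 and −0.35 in sham and at 0.76, 1.81 and −0.90 in ICH. Its difference of 0.73 ± 0.66 was the largest positive difference among the members (1.66-fold, limma adjusted p = 0.592). Ifitm1 stood at −0.94, −0.63 and −1.16 in sham and at −0.32, 0.84 and −1.76 in ICH. Ifitm2 stood at 0.76, 0.84 and 0.49 in sham and at 0.94, 1.56 and 0.09 in ICH. In this family ICH 2 was the highest array for all 3 genes, while for Ifit3, Mx1 and Oas1a it was ICH 1.

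Bst2, which encodes tetherin and holds budding viruses at the cell surface, stood at 0.42, 0.95 and 0.52 in sham and at 1.03, 1.71 and 0.10 in ICH. Gbp2, a GTPase induced mainly by type II interferon, stood at −0.95, 0.28 and −0.07 in sham and at 0.53, 0.93 and −1.56 in ICH. Gbp5, which also promotes inflammasome assembly, stood at −3.41, −2.15 and −2.73 in sham and at −3.28, −2.17 and −4.25 in ICH. Bst2 and Gbp2 had the split of the other members, whereas ICH 1 and ICH 2 lay inside the sham range for Gbp5. Its difference was −0.47 ± 0.58, and another probe gave −0.55.

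Rtp4, a chaperone-like protein with antiviral activity, stood at −1.18, −0.65 and −1.26 in sham and at −0.36, −0.62 and −1.77 in ICH. Ifi44, an antiviral protein of the cytoplasm, stood at 0.26, 0.66 and 0.38 in sham, with ICH 1 to 3 at 0.32, 0.33 and −0.47 relative to the sham mean. Ifi27, a small protein found in mitochondria, stood at 2.33, 2.52 and 2.53 in sham and at 2.08, 2.07 and 2.17 in ICH. For Ifi27 all ICH arrays lay below all sham arrays, and the difference of −0.35 ± 0.13 gave the smallest adjusted p among the members (0.315, limma). Under spike-in centring it was 0.08.

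The chemokines Cxcl9, Cxcl10 and Cxcl11 attract T cells and natural killer cells through the receptor Cxcr3, and their means were lower in ICH in 3 of 3. Cxcl10 stood at −2.03, −0.44 and −1.55 in sham and at −1.55, −0.74 and −4.35 in ICH, a difference of −0.88 ± 0.97 (limma adjusted p = 0.659). Cxcl9 stood at −4.72, −1.11 and −1.59 in sham and at −2.27, −1.49 and −4.68 in ICH, with sham 1 and ICH 3 nearly equal and lowest. Cxcl11 stood at −4.23, −1.09 and −2.54 in sham and at −2.11, −1.96 and −5.42 in ICH. None of the 3 had ICH 1 and ICH 2 both above every sham array, since sham 2 was the highest array for each. The sham arrays themselves spanned 3.61 for Cxcl9, 1.59 for Cxcl10 and 3.14 for Cxcl11.

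Markers of lymphocytes had a similar order over the arrays. The median of 15 tested lymphocyte markers of 19 listed relative to the sham mean was −1.49, 0.97 and 0.29 in sham and −0.28, 0.90 and −1.34 in ICH. The chemokine medians were −1.61, 1.36 and 0.08 in sham and 0.20, 0.67 and −2.79 in ICH. The brightest pair of lymphocyte markers were Nkg7, of cytotoxic granules, at −0.39, 0.90 and −1.07 on ICH 1 to 3, and Cd3d, of the T cell receptor complex, at −0.49, 0.78 and −1.52. Klrb1 and Ncr1 did not pass the brightness filter. The summed level of the list ran from −1.30 to 0.85 in sham and from −1.09 to 0.87 in ICH. The part of these cells in the chemokine values was not tested.

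Of 13 tested markers of monocytes and macrophages, 7 had ICH 1 and ICH 2 above all sham arrays and ICH 3 below them. That order was held by 3.84% of all rows. The median of the 13, of 15 listed, was −0.29, 0.27 and 0.07 in sham and 1.52, 1.90 and −0.57 on ICH 1 to 3. Their summed level ran from −0.27 to 0.19 in sham and was 0.85, 1.19 and −0.45 in ICH. The means of 12 of the 13 were higher in ICH, beside 45.9% of all rows. At an unadjusted p under 0.05 in limma 2 were higher, beside 6.16% of all rows, and Lyz2 was lower, beside 8.56%. At an adjusted p under 0.05 there were 0. The 2 higher markers did not have the split: Spp1 stood at 3.48, 3.50 and 1.25 and Arg1 at 1.75, 1.97 and 1.1, above all sham arrays on ICH 3 too. Of the brightest pair, Plac8 stood at 1.52, 1.75 and −1.25 relative to the sham mean, and Lyz2, the macrophage lysozyme gene, at −0.52, −0.23 and −0.57. Neutrophil markers had a summed level of −0.49 to 0.44 in sham and of 2.13, 2.87 and 0.00 in ICH, with S100a8 at 3.12, 3.29 and −0.21 and Csf3r at 1.24, 3.12 and 0.10, the brightest pair. The medians of the 10 tested neutrophil markers were 0.78, 1.44 and 0.00 on ICH 1 to 3. The means of 5 were higher in ICH, beside 45.9% of all rows, and those of 5 were lower. The lower ones were Camp (−0.01), Fpr1 (−0.02), Ltf (−0.45), Ngp (−0.75) and Retnlg (−0.90). Cxcr2, Mmp8 and Elane, 3 of 13 neutrophil markers with a probe, did not pass the brightness filter. The part of these cells in the interferon-stimulated genes was not tested.

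Of the tested microglial markers 2 of 13 had the split, beside 3.84% of all rows. They were Csf1r at 0.33, 0.32 and −0.40 and C1qc at 0.84, 0.65 and −0.15. The median of the 13, of 14 listed, was −0.30, −0.21 and −0.34 on ICH 1 to 3, and their summed level was −0.17, −0.20 and −0.31, below the sham range of −0.02 to 0.03. Without adjustment, 6 markers were lower at p under 0.05, beside 8.56% of all rows, and 0 higher, beside 6.16%. After adjustment 0 passed. C1qa, a complement subunit and among the brightest of these markers, stood at −0.06, −0.21 and −0.37.

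**Figure D3:**
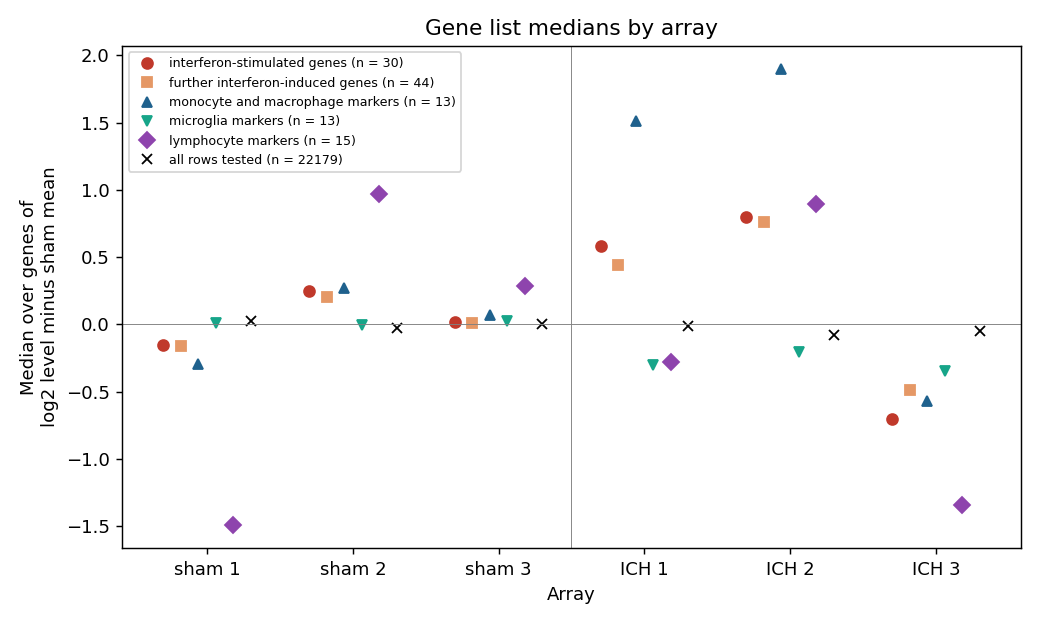
Median over the genes of each list of the log2 level minus the sham mean (vertical axis), on each of the 6 arrays (horizontal axis), for the 30 interferon-stimulated genes, 44 further interferon-induced genes, 3 lists of cell type markers and all 22179 tested rows. The interferon-stimulated genes, at 0.59, 0.80 and −0.70 on ICH 1 to 3, and the monocyte and macrophage markers, at 1.52, 1.90 and −0.57, are high on ICH 1 and ICH 2 and low on ICH 3; all rows together stay near 0.

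Of 15 listed interferon ligands and receptors, 10 had a probe and 8 were tested. The mean of 1 was higher in ICH, beside 45.9% of all rows, and the median difference was −0.16. The split was held by 0 of the 8, beside 3.84% of all rows. Ifng, the type II interferon gene, and Ifnk, a type I interferon gene, did not pass the brightness filter, and no probe was matched to Ifnar2. Ifnb1, the gene of interferon beta, stood at −0.68, −0.55 and −0.13 relative to the sham mean on ICH 1 to 3, and the interferon alpha genes Ifna4 and Ifna5 differed by −0.37 ± 0.36 and −0.56 ± 0.39. Ifnar1 differed by −0.04 ± 0.15 and Ifngr1 by −0.07 ± 0.23. Ifngr2 was the gene with a higher mean (0.71 ± 0.38, limma adjusted p = 0.409), with ICH 2 at 1.59 and ICH 1 and ICH 3 at 0.30 and 0.24. Ifnlr1, a receptor subunit for type III interferon, differed by −0.16 ± 0.23.

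Of 25 listed genes of signalling and nucleic acid sensing 19 were tested, 12 of them with a higher mean, beside 45.9% of all rows. The median of the 19 was 0.43, 0.43 and −0.15 on ICH 1 to 3. Of the 19, 6 had ICH 1 and ICH 2 above all sham arrays with ICH 3 below them, beside 3.84% of all rows. Without adjustment, 3 genes were higher in ICH at p under 0.05, beside 6.16% of all rows, and 0 were lower, beside 8.56%. After adjustment 0 passed. Jak1, the kinase of type I and type II receptors, stood at 0.56, 0.83 and 0.39 relative to the sham mean, a difference of 0.59 ± 0.15 (limma adjusted p = 0.301). Tbk1, the kinase that activates Irf3, stood at 0.55, 0.43 and 0.61, and Ptpn2, a phosphatase that restrains Jak1, at 0.56, 0.69 and 0.15. In these 3 genes ICH 3 lay above the sham mean together with ICH 1 and ICH 2. Irf3 stood at −0.20, −0.50 and −0.21, and Jak2 at 0.45, 0.81 and −0.04.

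A further 61 interferon-induced genes outside the 34 were listed, of which 44 were tested. Their median was 0.44, 0.76 and −0.49 on ICH 1 to 3. The means of 34 of the 44 were higher, beside 45.9% of all rows. Of the 44, 25 had ICH 1 and ICH 2 above all sham arrays with ICH 3 below them, beside 3.84% of all rows. Without adjustment, 2 of the 44 were higher at p under 0.05, beside 6.16% of all rows, and 1 was lower, beside 8.56%. After adjustment 0 passed. Ccl7, an attractant of monocytes, stood at 5.11, 5.72 and −0.99 (3.28 ± 1.79, limma adjusted p = 0.418), and the related Ccl2, named after its values were seen, at 4.86, 5.78 and −1.34. Adar, an RNA-editing enzyme, stood at 0.57, 0.90 and 0.16, and Tor3a, an ATPase of the endoplasmic reticulum, at 0.98, 0.95 and 0.27. Psmb10, a subunit of the immunoproteasome, was below the sham mean on every ICH array, at −0.47, −0.74 and −0.37, and B2m, the light chain of class I molecules, at −0.13, −0.22 and −0.24.

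The call of 0 members did not change when any array was left out, but the sizes did. Without ICH 3 the members' median difference was 0.63, against −0.08 without ICH 1 and −0.05 without ICH 2. Without ICH 3, 14 of 30 members were higher at an unadjusted p under 0.05, beside 9.63% of all rows. Then 20 members had ICH 1 and ICH 2 above all sham arrays, beside 19.4% of all rows. These are the same 20 members that had the split, so the count adds no further result. ICH 3 was the lowest array for 25 members, so leaving it out had to raise their differences, and the 14 are no independent support. Without ICH 3 limma called 36 rows (0.162%) at an adjusted p under 0.05, with 0 members among them. The differences were then 1.89 for Oasl, 1.60 for Oas1a, 1.53 for Irf7, 1.46 for Ifitm3 and 1.34 for Ifit3, with adjusted p-values from 0.0925 to 0.145. The sign of 20 of the 30 members changed when some array was left out. Among the other 10, Irf7, Irf9, Dhx58, Ifitm3, Irf1 and Isg20 had a higher mean in every case, and Mx2, Oas1b, Oas2 and Ifi27 a lower one.

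**Figure D4:**
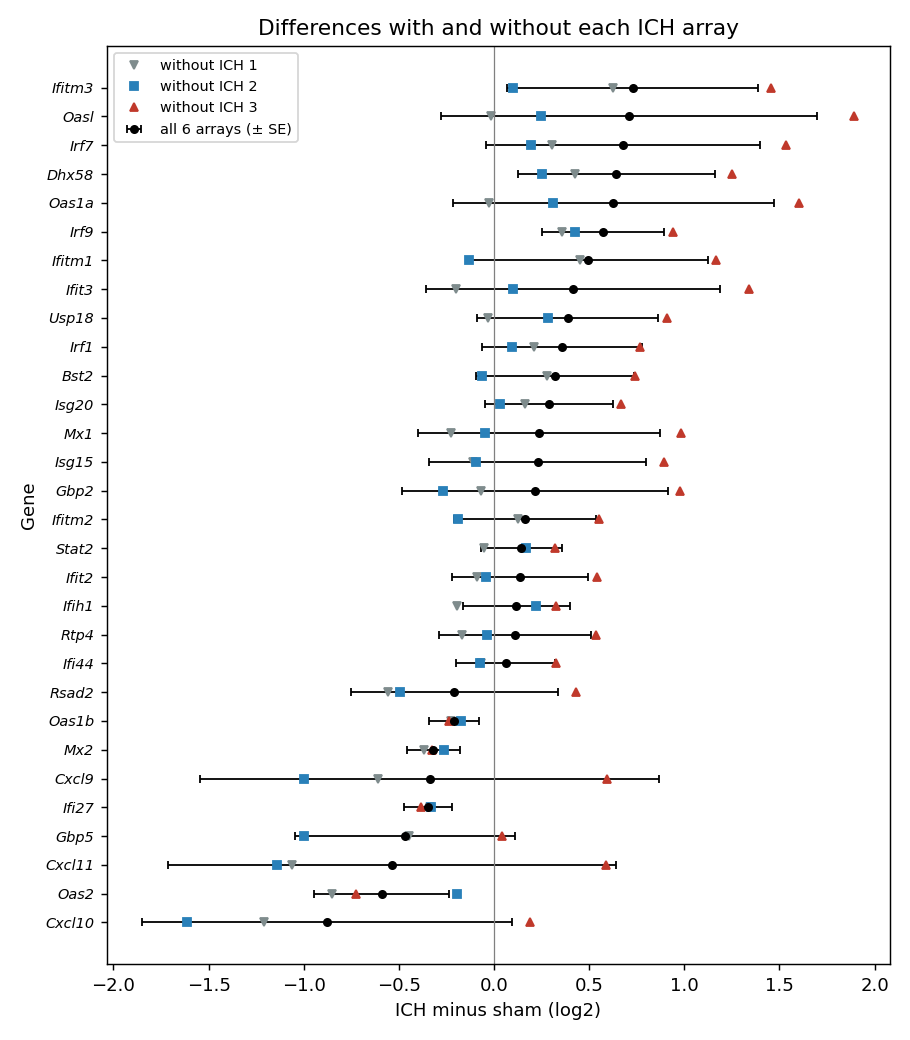
Difference of each tested interferon-stimulated gene, ICH minus sham on the log2 scale, with all 6 arrays (black, ± SE) and without each ICH array in turn (coloured markers), genes ordered by the difference with all arrays. Without ICH 3 the markers move right, to 1.89 for Oasl and 1.53 for Irf7, whereas Mx2, Oas1b and Ifi27 stay together left of 0.

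The arrays lay on 1 slide and were read in 1 scan. In the upper slide row lay the sham arrays and ICH 1, and in the lower row ICH 2 and ICH 3, so the members' high and low values were both found in the lower row. Within the upper row, where ICH 1 alone was set against sham, the members' median difference was 0.59. There 22 members lay above all sham arrays, beside 36.1% of all rows.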

How the data were processed

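Single-colour Agilent arrays of rat brain RNA were analysed, 3 sham and 3 ICH. Per the labels' protocols, RNA came from TRIzol extraction, and a linear amplification introduced the Cy3 label. Per the file headers, the deposited intensity values are background-subtracted processed signals of Agilent Feature Extraction 11.5.1.1, while the submitters' processing notes name version 10.7. Per the file headers, the other columns used hold flags, which mark non-uniform spots, saturation and signal well above background. The deposited log2 values equalled the ones computed here within 0.001 for 98.5% to 99.3% of probes, after 1 constant per array was removed (0.284 to 0.323).

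Values were log2 of the processed signal minus the array's log2 75th percentile, without non-uniform spots, averaged over a probe's spots. Probes well above background on at least 3 arrays were kept, and a gene's probe with the highest mean was used. 18355 probes had 1 gene symbol, 0 several and 12012 none. Limma 3.58.1 in R 4.3.3 tested ICH minus sham (two-sided, 6.12 degrees of freedom, no covariate) and was tested on simulated data with known changes. The simulation gave both groups the same SD in a row, whereas in the data 79.7% of rows varied more in ICH. It thus does not show how limma handles that unequal spread. Tables and figures were made with Python 3.11.15, numpy 2.4.6, pandas 2.3.3 and matplotlib 3.10.9. Where nothing says how the samples of a group were collected, p-values measure the spread between these samples. The number of arrays limits the precision.

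The members, the gene lists and the tests were chosen with earlier results of these data known. Every member is accounted for. Of each of 3 pathway lists (101 genes, 76 with a probe, 71 tested), up to 5 genes with the smallest p and a set of named ligands, receptors and factors are given, and of each cell type list described the brightest pair; some genes that this rule names are not reported here. Promoter sequences are from RefSeq, assembly GRCr8; windows were printed for the 4 members with an ISRE core and the largest absolute differences. Correlations of same-numbered arrays' deviations were −0.19, −0.01 and 0.07, and those of differently numbered arrays ran from −0.13 to 0.17. They gave no sign of pairing by number, but with 3 arrays in each group they cannot exclude it. Alternatives were normexp background correction (offset 50, on median spot signals, as mean signals were not among the columns), quantile normalization, other centring, the deposited log2 values, other probe filters, an intensity trend, array weights, blocks for the replicate number and the slide row, and leaving out each array.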

Additional observations from a re-analysis of the deposited data

How the results depend on the processing

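No setting called a member, and over 20 alternatives the members' adjusted p-values in limma ran from 0.0760 to 0.997. Over all rows, 3 were called with normexp background correction, 33 with centring on spike-in probes, 2 with the filter on all 6 arrays, 3 with an intensity trend and robust variance and 6 with array weights, against 0 in the main setting, and 0 to 36 when each array was left out (8 without ICH 2, 36 without ICH 3 and 0 otherwise). Members lower at an unadjusted p under 0.05 numbered 0 with quantile normalization, spike-in centring or a slide row block, and 2 with centring on the median or with the trend. Members higher numbered 1 with spike-in centring and 1 with a block for the slide row. Within the upper row no such count is given, because ICH 1 alone is assumed to vary like sham although the members varied more in ICH. Members with all ICH arrays below sham numbered 1 with quantile normalization and 0 with spike-in centring. Within the upper row 22 were above sham, beside 36.1% of all rows. With the replicate number as a block, 0 members were lower at an unadjusted p under 0.05, against 1 without it. The block changed no other call of the members, and the values gave no sign that the numbers pair the arrays. Leaving out each array gave 0 to 1 members lower and 0 to 14 higher at an unadjusted p under 0.05. It gave 0 to 20 above sham, 3 to 5 below sham (5 without ICH 1), and a median difference from −0.08 to 0.63. Without ICH 3 the 14 higher and the 20 above sham stood beside 9.63% and 19.4% of all rows. The 20 are the members with the split, counted again. The other member counts of this paragraph are given without a share of all rows under the same setting.

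The members' median difference, 0.19 in the main setting, was 0.11 with median centring, 0.0677 with array weights, where ICH 2 had the lowest weight (0.159 against 0.846 to 4.35), and 0.59 with a slide row block.

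Signs turned in these cases. With quantile normalization Oas1b stood at 0.0129, and with median centring Ifi44 at −0.0138. Spike-in centring moved the median of all rows to 0.39 and that of the members to 0.62, and turned Mx2 (0.11), Oas1b (0.22), Rsad2 (0.23), Ifi27 (0.0840) and Cxcl9 (0.10). Array weights turned Isg15 (−0.0541), Gbp2 (−0.26), Ifitm2 (−0.0142) and Ifi44 (−0.0312). A slide row block, like the upper row alone, turned Rsad2 (0.49), Cxcl9 (0.20) and Cxcl11 (0.51). The cause was not tested in these cases. Left-out arrays turned 20 members, listed here from the lowest to the highest value.
Bst2 ran from −0.0618 to 0.74, Cxcl10 ran from −1.62 to 0.19, Cxcl11 ran from −1.34 to 0.59 and Cxcl9 ran from −1.46 to 0.60. Gbp2 ran from −0.27 to 0.98, Gbp5 ran from −1.0 to 0.0398, Ifi44 ran from −0.0726 to 0.33 and Ifih1 ran from −0.19 to 0.32. Ifit2 ran from −0.0906 to 0.54, Ifit3 ran from −0.20 to 1.34, Ifitm1 ran from −0.13 to 1.17 and Ifitm2 ran from −0.19 to 0.55. Isg15 ran from −0.11 to 0.89, Mx1 ran from −0.23 to 0.98, Oas1a ran from −0.0278 to 1.60 and Oasl ran from −0.0137 to 1.89. Rsad2 ran from −0.56 to 0.43, Rtp4 ran from −0.17 to 0.54, Stat2 ran from −0.0541 to 0.32 and Usp18 ran from −0.0317 to 0.91.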
